A study of Homo sapiens with 6 samples.

Results

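The 43 genes described here encode chromatin modifiers and remodelers, and were chosen by name as histone methyltransferases, demethylases, acetyltransferases, deacetylases, DNA methylation enzymes and subunits of the SWI/SNF complex, many of them mutated in bladder cancer. All 43 were found among the 58288 gene identifiers of the deposited table, and all 43 passed the filter on low counts that left 14415 genes for testing. The cells were T24, a human bladder cancer cell line, transfected with a control siRNA (NC) or with 1 of 2 siRNAs against circ235, a circular RNA spliced from exons of CCNY. The 2 siRNAs, si-circ235-1 and si-circ235-2, were directed at the junction that closes the circle. There were 2 libraries per condition, labelled as biological replicates, and the sequencing asked which mRNAs change after knockdown of circ235, which the study describes as a sponge for the microRNA miR-330-5p. All values come from 1 cell line after transient transfection.

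DNA in the nucleus is wound around histones, and the enzymes considered here write, remove or read the chemical marks on histones and on cytosine, or use ATP to slide and evict nucleosomes. Methylation of histone H3 at lysine 4 (H3K4) marks promoters and enhancers, methylation at lysine 36 (H3K36) marks transcribed gene bodies, and methylation at lysine 27 (H3K27), written by the Polycomb complex PRC2, marks silenced genes. In urothelial carcinoma, loss-of-function mutations of KMT2D, KMT2C, ARID1A, CREBBP, EP300 and the H3K27 demethylase KDM6A are frequent, which makes this group of genes one of the most often altered in the disease.

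The libraries held 15373992 to 19912893 counts, and their TMM factors, which scale the library totals, ranged from 0.890 to 1.19. Polyadenylated RNA was sequenced without strand information, so circ235 itself has no value here and the labels could not be checked against it. Counts differed between libraries of the same condition beyond sampling noise (chi-square of 23.4 to 34.9 for each degree of freedom). This value pools all genes tested and uses raw totals, so it includes differences that the TMM factors scale out. Of the marker genes examined, KRT8, KRT18, KRT7, VIM and CD44 were at 499 CPM (counts per 1000000 of the TMM-scaled library total) or more in every library, KRT19, EPCAM and CDH1 were at 2.93 CPM or less, and the leukocyte markers PTPRC and CD3E and the urothelial marker UPK3A were at 0 in all 6 libraries. CDH2 and FN1, listed with VIM and CD44 as mesenchymal markers, were at 3.91 to 7.85 and 30.7 to 118 CPM. The labelled cell type was thus marked by KRT8, KRT18, KRT7, VIM and CD44, while KRT19, EPCAM, CDH1 and CDH2 were low.

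Since the study links circ235 to miR-330-5p, the sequence of this microRNA and of its matches in the 3′ UTRs of the members called in either comparison with NC are shown first. The mature microRNA comes from chr19:45639049-45639070 (GRCh38, minus strand) according to RefSeq, and the capitals mark its seed, bases 2 to 8.
hsa-miR-330-5p: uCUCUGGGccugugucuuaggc
A 3′ UTR site is the reverse complement of the seed, CCCAGAG, and is in capitals in the windows below, which are given on the strand of the gene with the GRCh38 position of the 7 bases in capitals. KMT2B and SETD1B fell under si-circ235-1, and SETD1B, KMT2A, CREBBP, KDM2B and KDM5B rose under si-circ235-2.
KMT2A, chr11:118522345-118522351, plus strand: acatcagacatgtgatcatagtCCCAGAGa
KMT2B, chr19:35738643-35738649, plus strand: gcctgggggctccctagcccctCCCAGAGc
SETD1B, chr12:121830902-121830908, plus strand: ccgagctgcagcctgttccttcCCCAGAGg
SETD1B, chr12:121831341-121831347, plus strand: tcggagggagcagattacttctCCCAGAGa
SETD1B, chr12:121832318-121832324, plus strand: ccctctccccaggagccccagcCCCAGAGt
CREBBP, chr16:3726279-3726285, minus strand: cctgtccgtcgtagctgccaccCCCAGAGg
CREBBP, chr16:3725887-3725893, minus strand: cctaagtctaccacccccagcaCCCAGAGa
KDM2B, chr12:121429123-121429129, minus strand: aggagtggactagaagtttaagCCCAGAGt
KDM5B, chr1:202729102-202729108, minus strand: atcaggtctgtgttggtgtctcCCCAGAGa

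Under si-circ235-2, 25 of the 43 genes were higher than in NC and 1 was lower (edgeR quasi-likelihood test, Benjamini-Hochberg adjusted p under 0.05, referred to as called). Over all genes tested, 15.7% were called higher and 15.7% lower in the same comparison, and the median log2 fold change was 0.89 over the chromatin genes against 0.00 over all genes. Under si-circ235-1, 0 of the 43 were called higher and 3 were called lower, beside 2.24% and 3.64% of all genes, with a median of -0.07 against -0.03. At an unadjusted p under 0.05, 11 of the 43 differed between si-circ235-1 and NC, beside 3644 of all 14415 genes tested, a similar share. DESeq2 called 2 of the 43 higher, KDM5A and HDAC1, beside 714 of all 14415 genes. Both comparisons use the same NC libraries. Without the TMM factors the median over all genes moved from 0.00 to 0.25 for si-circ235-2, with 3173 genes called higher and 1294 lower in place of 2270 and 2260, and the median of the chromatin genes moved from 0.89 to 1.13. The chromatin genes summed to 2176 and 2364 CPM in the NC libraries, 2337 and 2107 CPM in the si-circ235-1 libraries, and 3114 and 3271 CPM in the si-circ235-2 libraries. Both si-circ235-2 libraries were above the other 4, and the si-circ235-1 libraries overlapped those of NC. In bulk RNA, a change in the share of cells that express a gene and a change in the amount per cell cannot be told apart.

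The members rose by more where the transcript was longer, and genes of all kinds did so under si-circ235-2, as described further on with the lengths. Of the 25 calls, 7 were kept when NC replicate 1 was left out (KMT2D, SMARCC1, CREBBP, EP300, KDM2A, KDM5A and TET3), and the adjusted p of the others called higher then ran from 0.0535 (KDM5B) to 0.219 (SMARCA2). The calls over all genes then went from 2270 higher and 2260 lower to 392 and 287. Leaving out any other single library left 20 to 26 of the chromatin genes called higher.

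**Figure D1:**
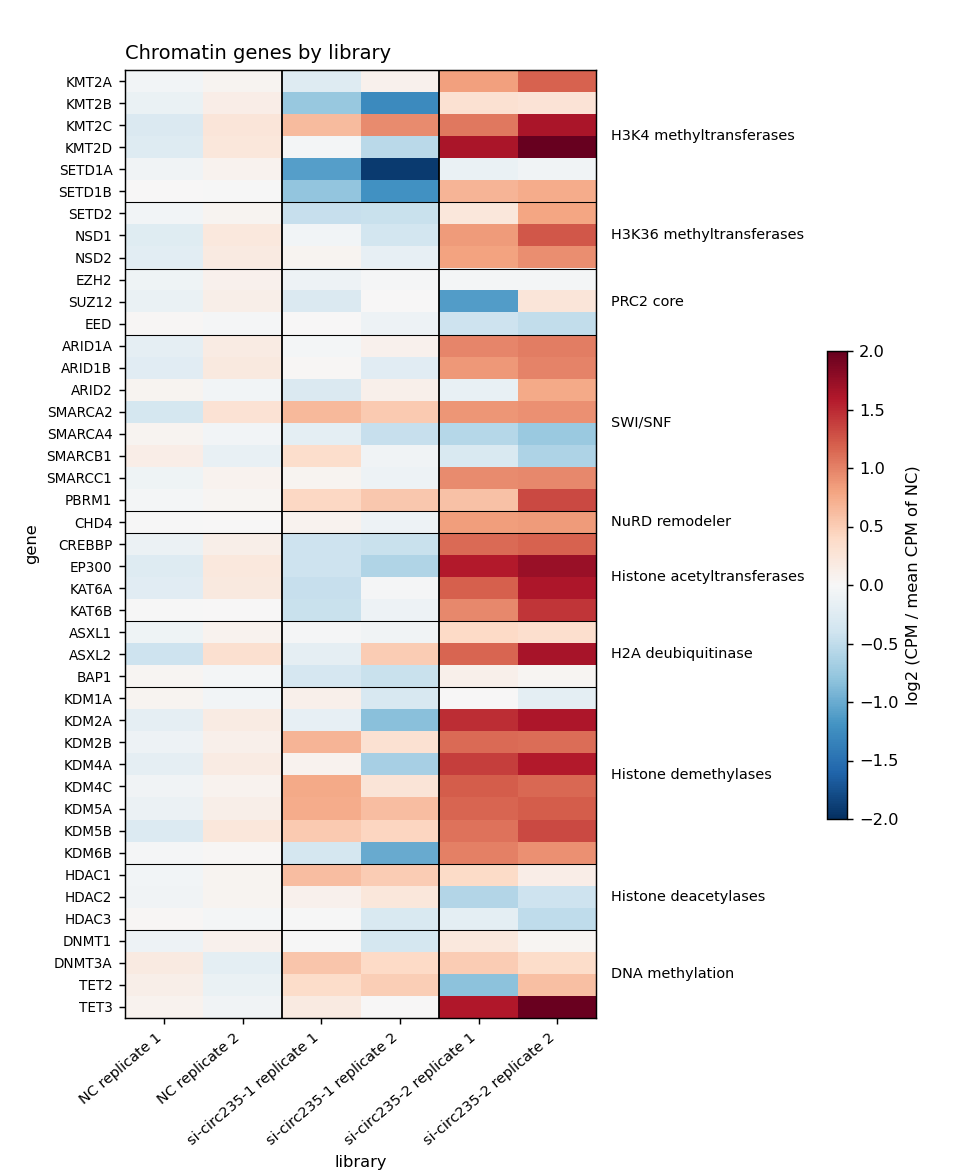
Level of each of the 43 chromatin genes (rows, grouped by role) in each of the 6 libraries (columns), as log2 of its CPM over the mean CPM of the NC libraries, with red above and blue below that mean and the colour scale ending at 2 in both directions. Most rows were red in both si-circ235-2 columns, where 25 of 43 genes were called higher, while the si-circ235-1 columns held both colours.

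The H3K4 methyltransferases were split between the siRNAs: 4 of 6 were called higher under si-circ235-2 and 3 of 6 lower under si-circ235-1. KMT2D (chr12:49018975-49059774, minus strand), which with KMT2C places monomethyl marks on enhancers, was at 20.3 and 28.4 CPM in NC, 23.6 and 16.8 in si-circ235-1 and 75.4 and 108 in si-circ235-2. Both si-circ235-2 libraries lay above the other 4, and the log2 fold change was 1.91 ± 0.26 (SE), a 3.77-fold level (adjusted p = 0.00182), while under si-circ235-1 it was -0.27 ± 0.26 (adjusted p = 0.562). It was the highest log2 fold change of the 43 genes in this comparison. KMT2C was at 9.91 and 14.2 CPM in NC, 18.8 and 23.3 in si-circ235-1 and 25.1 and 37.5 in si-circ235-2, with no overlap between conditions. Against NC it changed by 1.37 ± 0.28 (log2) in si-circ235-2 (adjusted p = 0.00553) and by 0.80 ± 0.28 in si-circ235-1, which did not pass the test (adjusted p = 0.106). KMT2A, the MLL protein rearranged in leukaemia, had 46.3 and 49.9 CPM in NC, 40.4 and 51.1 in si-circ235-1 and 85.1 and 109 in si-circ235-2, and only the si-circ235-2 libraries stood apart (1.02 ± 0.20 on the log2 scale, adjusted p = 0.00526).

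SETD1A (chr16:30957294-30984664, plus strand) and SETD1B (chr12:121804180-121832584, plus strand) are the catalytic subunits of the complexes that write most trimethylation of H3K4 at promoters. SETD1A was at 30.7 and 33.7 CPM in NC, 15 and 8.54 in si-circ235-1 and 29.5 and 30.5 in si-circ235-2. The si-circ235-1 libraries were the lowest, at 0.365 of the NC level (-1.45 ± 0.27 on the log2 scale, adjusted p = 0.0168), and the si-circ235-2 libraries lay just under those of NC (-0.10 ± 0.26, adjusted p = 0.799). SETD1B had 20.6 and 20.4 CPM in NC, 11.8 and 8.82 in si-circ235-1 and 32.7 and 34.2 in si-circ235-2. The conditions did not overlap: SETD1B was lower under si-circ235-1 (-0.99 ± 0.23, adjusted p = 0.035) and higher under si-circ235-2 (0.71 ± 0.23, adjusted p = 0.0351), the latter not without either NC library or si-circ235-2 replicate 2. KMT2B (chr19:35718019-35738878, plus strand), the close relative of KMT2A, was at 48.3 and 58.1 CPM in NC, 31.6 and 21.9 in si-circ235-1 and 65.8 and 64 in si-circ235-2. It fell under si-circ235-1, to 0.503 of the NC level (-0.99 ± 0.22, adjusted p = 0.0297), and had a log2 fold change of 0.29 ± 0.22 under si-circ235-2 (adjusted p = 0.336).

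The 3 falls under si-circ235-1 rested on 2 libraries per condition. Their log2 fold changes stayed between -1.91 and -0.75 when single libraries were left out. Calls among the 3 were lost in fits that left 1 library in NC or si-circ235-1, where fewer genes of all kinds were called too. In si-circ235-1 replicate 2, all 3 were lower than in replicate 1, with SETD1A at 8.54 against 15.0 CPM.

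Among the H3K36 methyltransferases, 2 of 3 were called higher under si-circ235-2. NSD1, which dimethylates H3K36, was at 27.5 and 37.8 CPM in NC, 31.4 and 25.3 in si-circ235-1 and 59.2 and 77.1 in si-circ235-2, and NSD2, a dimethylating enzyme overexpressed in a subset of myelomas, was at 96.8 and 127, 116 and 99.3 and 196 and 212 CPM. In both genes the si-circ235-2 libraries were the highest and the si-circ235-1 libraries overlapped those of NC, with log2 fold changes under si-circ235-2 of 1.06 ± 0.23 for NSD1 (adjusted p = 0.00731) and 0.87 ± 0.20 for NSD2 (adjusted p = 0.00849). SETD2, the enzyme that trimethylates H3K36, missed the threshold at 0.53 ± 0.22 (adjusted p = 0.093).

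The core of PRC2 held none of the calls. EZH2, its catalytic subunit, was at 61.8 and 69.4 CPM in NC, 61.1 and 64.8 in si-circ235-1 and 64 and 64 in si-circ235-2, and the conditions overlapped. Against NC it had log2 fold changes of -0.06 ± 0.18 under si-circ235-1 (adjusted p = 0.871) and -0.04 ± 0.18 under si-circ235-2 (adjusted p = 0.901). EED, the subunit that binds the methylated lysine, had a log2 fold change of -0.46 ± 0.20 under si-circ235-2 (adjusted p = 0.106), with both libraries below those of NC. SUZ12, the third core subunit, differed between the si-circ235-2 libraries by more than between conditions, at 25.5 and 65.5 CPM against 50.4 and 60.1 CPM in NC, and reads of its partial pseudogene SUZ12P1 could be counted under either gene.

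SWI/SNF complexes remodel nucleosomes with 1 of 2 alternative ATPases, SMARCA4 (BRG1) or SMARCA2 (BRM). From the counts as deposited, these moved in opposite directions under si-circ235-2. SMARCA4 (chr19:10960825-11079426, plus strand) was at 48.3 and 44.6 CPM in NC, 40.6 and 33.8 in si-circ235-1 and 31.3 and 27.9 in si-circ235-2. Both si-circ235-2 libraries were below the other 4, and it was the 1 chromatin gene called lower (-0.65 ± 0.20 on the log2 scale, adjusted p = 0.0288). The call was lost without either NC library and without si-circ235-2 replicate 2, with the log2 fold change between -0.74 and -0.57, and without the TMM factors, where it was -0.39 (adjusted p = 0.178). SMARCA2 was at 5.9 and 9.17 CPM in NC, 11.8 and 10.8 in si-circ235-1 and 13.9 and 14.2 in si-circ235-2, with every siRNA library above both NC libraries. It rose under si-circ235-2 (0.89 ± 0.27, adjusted p = 0.0274) and had a log2 fold change of 0.58 ± 0.27 under si-circ235-1 (adjusted p = 0.207). With the trend over length and GC content removed, the rise of SMARCA2 under si-circ235-2 was 0.30 ± 0.22 and not called (edgeR, adjusted p = 0.33).

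The other subunits called, 4 of 6, were all higher under si-circ235-2. ARID1A, the DNA-binding subunit that is the one most often mutated in bladder cancer, was at 41.8 and 52.9 CPM in NC, 46 and 50.3 in si-circ235-1 and 92.9 and 96.1 in si-circ235-2 (1.00 ± 0.19, adjusted p = 0.00445). Its alternative ARID1B was at 18.8 and 25.2, 22.3 and 18.8 and 40.1 and 43.6 CPM (0.93 ± 0.22, adjusted p = 0.0111). In both, NC and si-circ235-1 overlapped and the si-circ235-2 libraries were the highest. SMARCC1, a core scaffold, was at 70.7 and 78.7, 77.4 and 69.6 and 144 and 146 CPM (0.96 ± 0.17, adjusted p = 0.00388), and PBRM1, the bromodomain subunit of the PBAF form, at 17.7 and 18.6, 24.3 and 26.3 and 27.1 and 45.5 CPM (1.00 ± 0.26, adjusted p = 0.0149). PBRM1 was the less even of the pair, with si-circ235-2 replicate 1 close to the si-circ235-1 libraries, and its log2 fold change was 0.58 (adjusted p = 0.115) without si-circ235-2 replicate 2. ARID2, also of PBAF, and SMARCB1, a core subunit, did not pass the test, at 0.38 ± 0.29 (adjusted p = 0.348) and -0.45 ± 0.21 (adjusted p = 0.126). CHD4, the ATPase of the NuRD complex, was at 117 and 119 CPM in NC, 123 and 110.1 in si-circ235-1 and 211 and 214 in si-circ235-2, and its log2 fold change with si-circ235-2 was 0.85 ± 0.17 (adjusted p = 0.0056).

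All 4 histone acetyltransferases were called higher under si-circ235-2, and 0 of 4 were called under si-circ235-1. With the trend over length and GC content removed, 2 of the 4 were called higher under si-circ235-2, EP300 and CREBBP. EP300 (chr22:41091786-41180079, plus strand) and CREBBP (chr16:3725054-3880726, minus strand) are paired coactivators that acetylate H3K27 at active enhancers and promoters. EP300 was at 24.3 and 33.5 CPM in NC, 21.6 and 19 in si-circ235-1 and 87.1 and 95.7 in si-circ235-2, and CREBBP at 38 and 44.7, 31 and 30.5 and 91.2 and 93.5 CPM. For both genes the si-circ235-2 libraries were the highest, the si-circ235-1 libraries the lowest, and no condition overlapped another. EP300 was 3.16-fold higher under si-circ235-2 (1.66 ± 0.21 on the log2 scale, adjusted p = 0.00179) and CREBBP 2.23-fold higher (1.16 ± 0.18, adjusted p = 0.00264). Under si-circ235-1 the log2 fold changes were -0.51 ± 0.21 (adjusted p = 0.167) and -0.43 ± 0.18 (adjusted p = 0.173). The MYST-family enzymes KAT6A and KAT6B were at lower levels. KAT6A was at 8.46 and 11.2 CPM in NC, 7.13 and 9.66 in si-circ235-1 and 22.6 and 30.4 in si-circ235-2 (1.43 ± 0.27, adjusted p = 0.00446). KAT6B was at 4.92 and 5.01, 3.64 and 4.63 and 9.68 and 13.3 CPM (1.21 ± 0.28, adjusted p = 0.00944). Both showed the si-circ235-2 libraries above the other 4.

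BAP1 removes ubiquitin from histone H2A together with an ASXL cofactor, and 1 of these 3 genes was called. ASXL2 was at 10.2 and 17.1 CPM in NC, 12 and 19.5 in si-circ235-1 and 30.5 and 42.9 in si-circ235-2. Its si-circ235-2 libraries were the highest (1.42 ± 0.32, adjusted p = 0.0085), and the si-circ235-1 libraries overlapped those of NC. ASXL1 had a log2 fold change of 0.37 ± 0.17 (adjusted p = 0.127) and BAP1 one of 0.08 ± 0.17 (adjusted p = 0.762).

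Of the 8 histone demethylases, 7 were called higher under si-circ235-2 and 0 under si-circ235-1. With the trend over length and GC content removed, 5 of the 8 were called higher under si-circ235-2. KDM2A and KDM2B bind unmethylated CpG islands and remove methyl groups from H3K36. KDM2A (chr11:67119269-67258087, plus strand) was at 25.3 and 32.1 CPM in NC, 25.7 and 16.1 in si-circ235-1 and 80.3 and 88.1 in si-circ235-2, with si-circ235-2 the highest and the other conditions overlapping (2.93-fold, 1.55 ± 0.25 on the log2 scale, adjusted p = 0.00264). KDM2B was at 16.3 and 18.7, 27.9 and 21.5 and 38.4 and 38.1 CPM, and here the si-circ235-1 libraries stood between NC and si-circ235-2 (1.13 ± 0.22 under si-circ235-2, adjusted p = 0.00472, and 0.50 ± 0.22 under si-circ235-1, adjusted p = 0.185). Of its exon bases, 3.22% overlap RNF34 on the opposite strand, whose reads cannot be told apart there. KDM4A, which demethylates H3K9 and H3K36, was at 20.2 and 25.5 CPM in NC, 24 and 14.4 in si-circ235-1 and 59.4 and 69 in si-circ235-2, and only the last stood apart (1.49 ± 0.26, adjusted p = 0.00341). The antisense gene KDM4A-AS1 overlaps 8.97% of its exon bases, but held 129 counts over the 6 libraries against 3777 for KDM4A.

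The H3K4 demethylases KDM5A and KDM5B were graded over the conditions. KDM5A was at 22.6 and 26.6 CPM in NC, 41.3 and 37.7 in si-circ235-1 and 55.3 and 57.3 in si-circ235-2, and KDM5B at 22.3 and 31.5, 38.9 and 36.1 and 57.2 and 67.1 CPM. In both, each si-circ235-1 library was above both NC libraries and below both si-circ235-2 libraries. Their log2 fold changes under si-circ235-2 were 1.19 ± 0.19 (adjusted p = 0.00275) and 1.21 ± 0.22 (adjusted p = 0.00381), and under si-circ235-1 0.68 ± 0.19 (adjusted p = 0.0617) and 0.48 ± 0.22 (adjusted p = 0.199). KDM6B, an H3K27 demethylase induced in inflammation, was at 16.3 and 16.8 CPM in NC, 12.9 and 8.26 in si-circ235-1 and 33.3 and 31.1 in si-circ235-2, so that both si-circ235-1 libraries lay below NC and both si-circ235-2 libraries above it. It was called higher under si-circ235-2 (0.96 ± 0.25, adjusted p = 0.0162) and did not pass the test under si-circ235-1 (-0.65 ± 0.26, adjusted p = 0.145). KDM4C, below 6 CPM in every library, was also called under si-circ235-2 (1.17 ± 0.31, adjusted p = 0.0177). KDM1A, the flavin-dependent H3K4 demethylase, was at -0.10 ± 0.20 on the log2 scale (adjusted p = 0.745).

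The deacetylases and most DNA methylation enzymes did not pass the test under either siRNA. HDAC1, at 168 and 181 CPM in NC, was at 268 and 248 in si-circ235-1 and 227 and 191 in si-circ235-2. Its si-circ235-1 libraries were the highest, with a log2 fold change of 0.56 ± 0.18 (adjusted p = 0.0901). HDAC2, its partner in the NuRD and SIN3 complexes, had a log2 fold change of -0.49 ± 0.18 under si-circ235-2 (adjusted p = 0.054), and HDAC3 one of -0.34 ± 0.19 (adjusted p = 0.206). TET3, which oxidises methylated cytosine, was the exception among the 4 DNA methylation genes. It was at 6.95 and 6.36 CPM in NC, 7.55 and 6.7 in si-circ235-1 and 20.3 and 26.1 in si-circ235-2, a 3.49-fold rise under si-circ235-2 (1.80 ± 0.25, adjusted p = 0.00184). Its relative TET2 was at 2.6 and 6.98 CPM in the si-circ235-2 libraries, a spread wider than that between conditions. DNMT1, the maintenance methyltransferase, had a log2 fold change of 0.12 ± 0.20 (adjusted p = 0.666) and DNMT3A, the de novo enzyme, one of 0.44 ± 0.25 (adjusted p = 0.203).

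**Figure D2:**
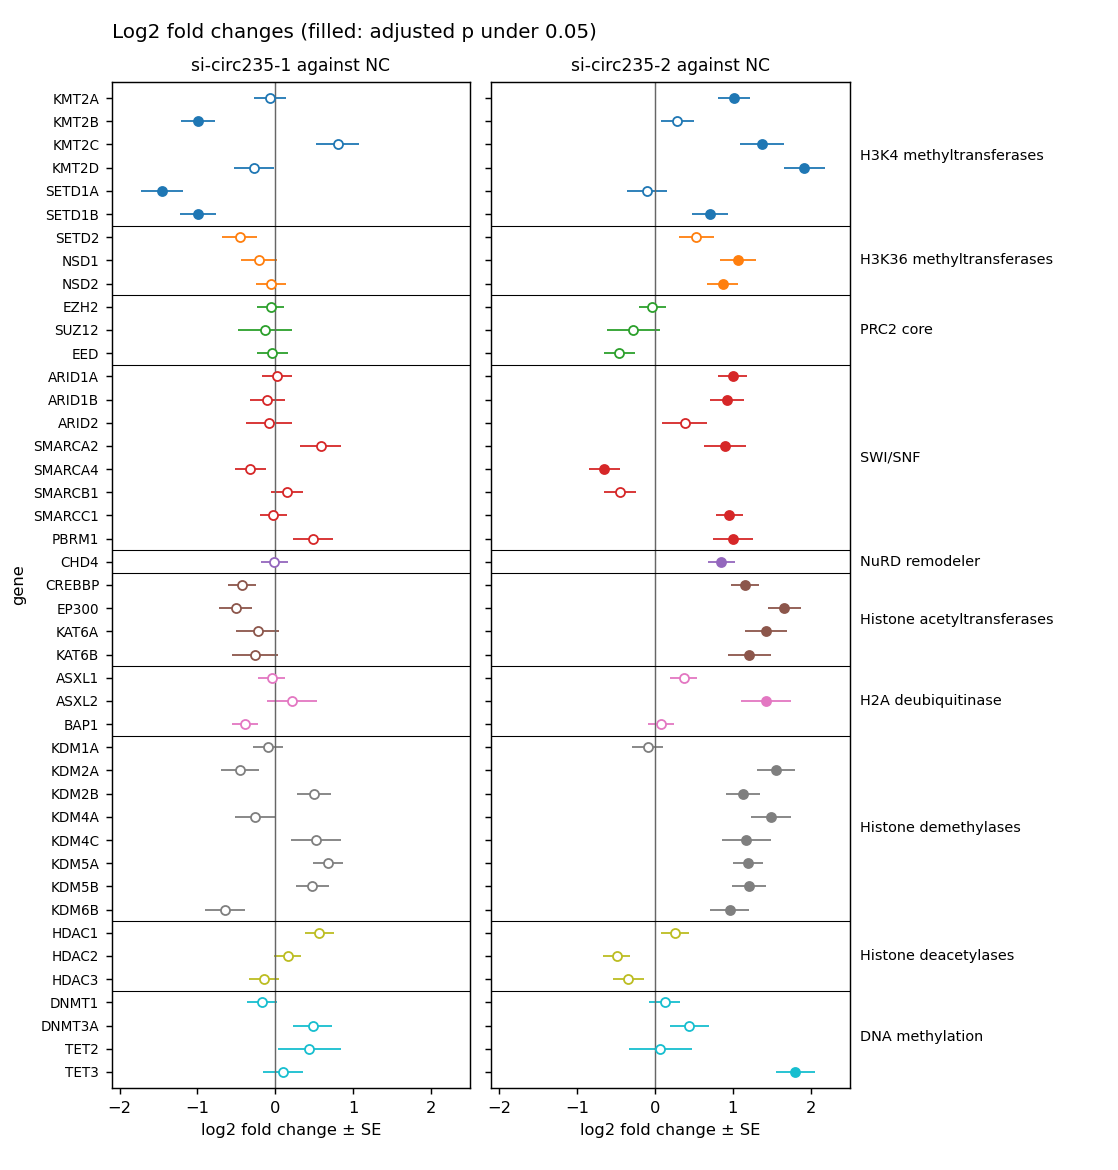
Log2 fold change of each chromatin gene (points) with its SE (bars) for si-circ235-1 against NC on the left and si-circ235-2 against NC on the right, grouped and coloured by role, with filled points for an adjusted p under 0.05. On the left, 3 points are filled, all H3K4 methyltransferases below 0, and on the right 26 are filled, of which SMARCA4 alone is below 0.

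Both libraries of a condition stood apart from NC for many members without a call. Under si-circ235-2, both libraries were above both NC libraries for 31 of the 43 genes and below for 6, beside 36.4% and 35% of all genes tested. Under si-circ235-1 the counts were 11 above and 10 below, beside 26.2% and 28.8% of all genes, and between the siRNAs si-circ235-2 was above si-circ235-1 for 31 and below it for 5, beside 38.4% and 33.7%.

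The transcripts of these genes are long, and length was related to the fold changes under si-circ235-2. The longest annotated transcript of the 43 genes had a median of 8172 nt (1959 to 19419), against 3354 nt over all genes tested, and 32 of the 43 were in the longest of 5 length classes of equal size, that of genes over 5642 nt. In that class, 35.9% of all genes were called higher under si-circ235-2 and 2.54% lower, with a median log2 fold change of 0.48, while the median of the shortest class was -0.60. In the same class 2.71% of all genes were called higher and 3.48% lower under si-circ235-1. Among the 32 chromatin genes of this class, 23 were called higher and 1 lower with si-circ235-2, and their median was 0.98. Of the 11 chromatin genes outside it, 2 were called higher, KDM4A and KDM4C, and 0 lower, beside 10.7% and 19% of all genes of those lengths, and their median was -0.04, against -0.13. Across 14386 genes with a length, which are not independent replicates and share the same libraries, the Pearson correlation of the log2 fold change with log2 length was 0.371 under si-circ235-2 but 0.0446 under si-circ235-1, and across the 43 genes it was 0.597 and 0.0568. The part of length in the rise of the chromatin genes was not tested directly, but the fit was repeated with the trend over length and GC content taken out.

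Length also moved with the replicates of NC and si-circ235-2. Between the NC libraries, the median log2 difference of replicate 2 from replicate 1 was 0.15 over the chromatin genes and 0.15 over the longest class of all genes, against -0.29 in the shortest class, and 32 of the 43 chromatin genes were higher in replicate 2. Between the si-circ235-2 libraries the same differences were 0.05, 0.12 and -0.23. Between the si-circ235-1 libraries they went the other way, at -0.15, 0.02 and 0.11, and 13 of the 43 chromatin genes were higher in replicate 2.

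**Figure D3:**
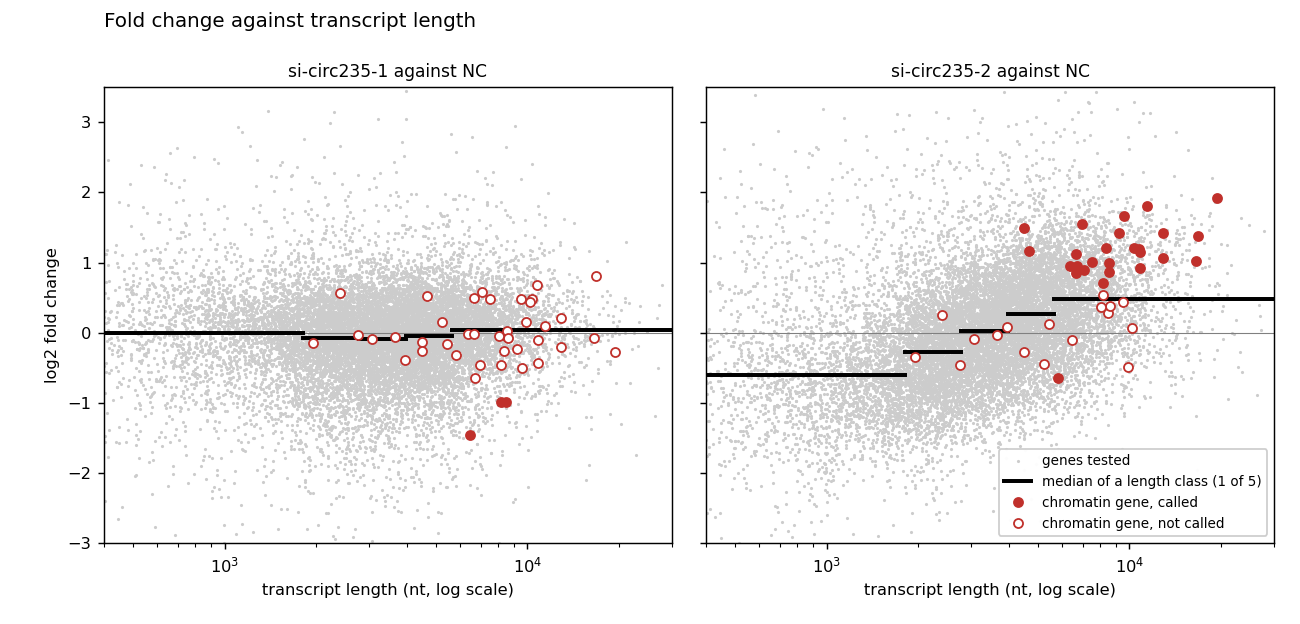
Log2 fold change (vertical axis) against transcript length in nt (horizontal axis, log scale) for si-circ235-1 against NC on the left and si-circ235-2 against NC on the right, with grey dots for all genes tested, black bars for the median of each of 5 length classes, filled red circles for chromatin genes called and open red circles for those not called. The bars stay near 0 on the left and climb from -0.60 to 0.48 on the right, where the called chromatin genes lie mostly above the bar of the longest class.

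When the trend of the counts over length and GC content was taken out of each library by splines, 13 of the 43 genes were called higher and 3 lower under si-circ235-2, in place of 25 and 1, and the median log2 fold change was 0.30 in place of 0.89. Over all genes the same fit called 11.2% higher and 14.7% lower. The 13 genes were KMT2D, SETD1B, ARID1A, PBRM1, CREBBP, EP300, ASXL2, KDM2A, KDM2B, KDM4A, KDM5A, KDM6B and TET3, all of which were also called from the counts as deposited. With the trend over length alone removed, SETD1B (0.24, adjusted p = 0.455), ARID1A (0.53, adjusted p = 0.0539), PBRM1 (0.53, adjusted p = 0.0878) and KDM6B (0.56, adjusted p = 0.119) were not called. In all 4 fits with a trend removed, the calls of KMT2D, CREBBP, EP300, ASXL2, KDM2A, KDM2B, KDM4A, TET3 and SMARCA4 held. KMT2D kept a log2 fold change of 1.52 (adjusted p = 0.00333), TET3 one of 1.15 (adjusted p = 0.00496), KDM4A one of 1.05 (adjusted p = 0.00824) and EP300 one of 1.04 (adjusted p = 0.00391). The 12 genes that lost the call included the longest methyltransferases after KMT2D: KMT2A (16628 nt) went from 1.02 to 0.13 (adjusted p = 0.553), KMT2C (16862 nt) from 1.37 to 0.51 (adjusted p = 0.0873) and NSD1 (12892 nt) from 1.06 to 0.21 (adjusted p = 0.358). The others were NSD2, ARID1B, SMARCA2, SMARCC1, CHD4, KAT6A, KAT6B, KDM4C and KDM5B. KMT2D, at 19419 nt the longest of the 43, was thus one of those that stayed called.

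SMARCA4 was called lower in both fits (-0.69 with the trend removed, adjusted p = 0.00838), and HDAC2 and SMARCB1 joined it, at -0.78 (adjusted p = 0.0158) and -0.53 (adjusted p = 0.0257). For HDAC2 and SMARCB1 the trend was taken at the longest annotated transcripts, 9874 and 5210 nt. These 2 added calls depend on those lengths, and the lengths expressed were not measured. Under si-circ235-1 the falls of SETD1A, KMT2B and SETD1B stayed called, at -1.21, -0.76 and -0.75, and SETD2 was added at -0.56 (adjusted p = 0.04). With the replicate block added to that fit, neither KMT2B (-0.76, adjusted p = 0.0542) nor SETD2 was called. With the trend removed and no block, KMT2C, KDM2B, KDM5A and HDAC1 were called higher under si-circ235-1, at 0.73, 0.72, 0.57 and 0.60, beside 8.25% of all genes called higher and 5.41% lower.

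**Figure D4:**
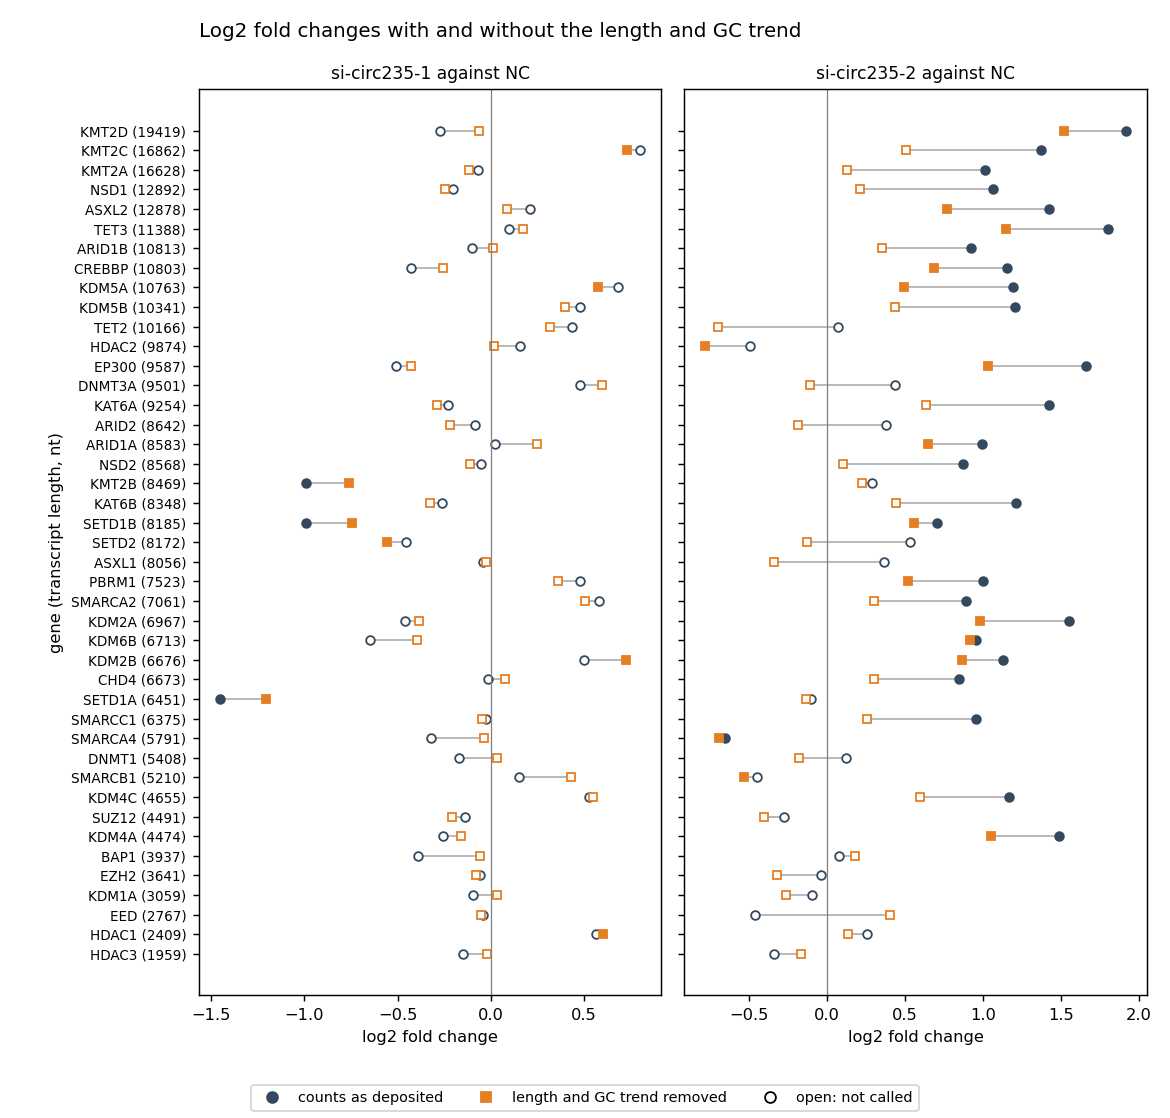
Log2 fold changes of the 43 chromatin genes, ordered by transcript length in nt with the longest on top, from the counts as deposited (dark circles) and with the trend over length and GC content removed (orange squares), joined by a line, with open symbols for genes not called. For si-circ235-2 against NC on the right, nearly all symbols of long genes shift to the left, with 13 filled squares above 0 and 3 below, and for si-circ235-1 on the left the shifts are small.

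The ratio of a gene to its paralog within a library does not depend on how that library was scaled, but members of a pair can differ in length and GC content (42.9% for SMARCA2 and 61.4% for SMARCA4, for example). Ratios of length-scaled levels (RPKM, CPM divided by the transcript length in kilobases) were taken for 14 pairs of paralogs, and 6 pairs chosen after their values were seen are given on the log2 scale as a description. SMARCA2 to SMARCA4 was at -3.32 and -2.57 in NC, -2.08 and -1.93 in si-circ235-1 and -1.46 and -1.26 in si-circ235-2, so that the balance of the ATPases stood nearer to SMARCA2 in every siRNA library than in either NC library. KMT2C to KMT2D was at -0.83 and -0.79 in NC, -0.12 and 0.67 in si-circ235-1 and -1.38 and -1.32 in si-circ235-2, above NC with the first siRNA and below it with the second. KDM2A (6967 nt) to KDM2B (6676 nt) was at 0.57 and 0.72 in NC, -0.18 and -0.48 in si-circ235-1 and 1.00 and 1.15 in si-circ235-2, again in opposite directions. SETD1A to SETD1B was at 0.92 and 1.07 in NC, 0.69 and 0.30 in si-circ235-1 and 0.19 and 0.18 in si-circ235-2, and fell with both siRNAs. TET2 to TET3 was at -0.32 and -0.43 in NC, -0.18 and 0.11 in si-circ235-1 and -2.80 and -1.74 in si-circ235-2. ARID1A to ARID1B did not separate the conditions, at 1.48 and 1.40 in NC, 1.38 and 1.75 in si-circ235-1 and 1.54 and 1.47 in si-circ235-2.

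The siRNAs were also compared with each other, without the NC libraries in the contrast. There 23 of the 43 genes were higher under si-circ235-2 and 2 were lower, beside 21.1% and 18.6% of all genes, and the median log2 difference was 0.73 over the chromatin genes and 0.04 over all genes. In the longest class of all genes the shares were 37.1% and 6.08%. The largest differences were those of KMT2D (2.19 ± 0.27, adjusted p = 0.000546), EP300 (2.17 ± 0.22, adjusted p = 0.000391) and KDM2A (2.01 ± 0.25, adjusted p = 0.000563), and the genes lower under si-circ235-2 were HDAC2 (-0.65 ± 0.18, adjusted p = 0.014) and SMARCB1 (-0.60 ± 0.21, adjusted p = 0.0413). The call of HDAC2 was lost when either replicate 2 of si-circ235-1 or replicate 1 of si-circ235-2 was left out, and that of SMARCB1 when either replicate 1 of si-circ235-1 or replicate 2 of si-circ235-2 was. Without the TMM factors neither was called, at -0.31 (adjusted p = 0.22) and -0.27 (adjusted p = 0.287). SETD1A, KMT2B and SETD1B differed by 1.35 ± 0.27, 1.28 ± 0.22 and 1.70 ± 0.23 (adjusted p = 0.00321, 0.00164 and 0.000743), and this difference was called whichever single library was left out. With the trend removed, 15 genes were called higher and 6 lower, beside 17.2% and 23.2% of all genes. The higher ones included all 4 acetyltransferases, and the lower ones were SMARCB1, HDAC2, SMARCA4, HDAC1, DNMT3A and TET2.

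Per unit of length of the longest annotated transcript, HDAC1 had the highest level of the 43 genes in NC (mean 72.4 RPKM), followed by DNMT1 (42.3), BAP1 (39.2), HDAC3 (38.9) and KDM1A (36.8). From DNMT1 to KDM1A, each gene overlapped its neighbour in this order in the NC libraries. TET2 (0.453), KDM4C (0.55), TET3 (0.584) and KAT6B (0.595) were the lowest. Many of the genes that rose under si-circ235-2 stood low per length: KMT2D went from 1.25 to 4.72 RPKM, EP300 from 3.01 to 9.53 and KDM2A from 4.12 to 12.1. Under si-circ235-2, HDAC1 was still at 86.6 RPKM. Which transcripts the cells expressed was not measured, and the order of the genes depends on it. SMARCB1 (5210 nt) and HDAC2 (9874 nt), for example, have annotated 3′ UTRs of up to 3828 and 8030 nt. If shorter transcripts were expressed, their levels per length are understated here.

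**Figure D5:**
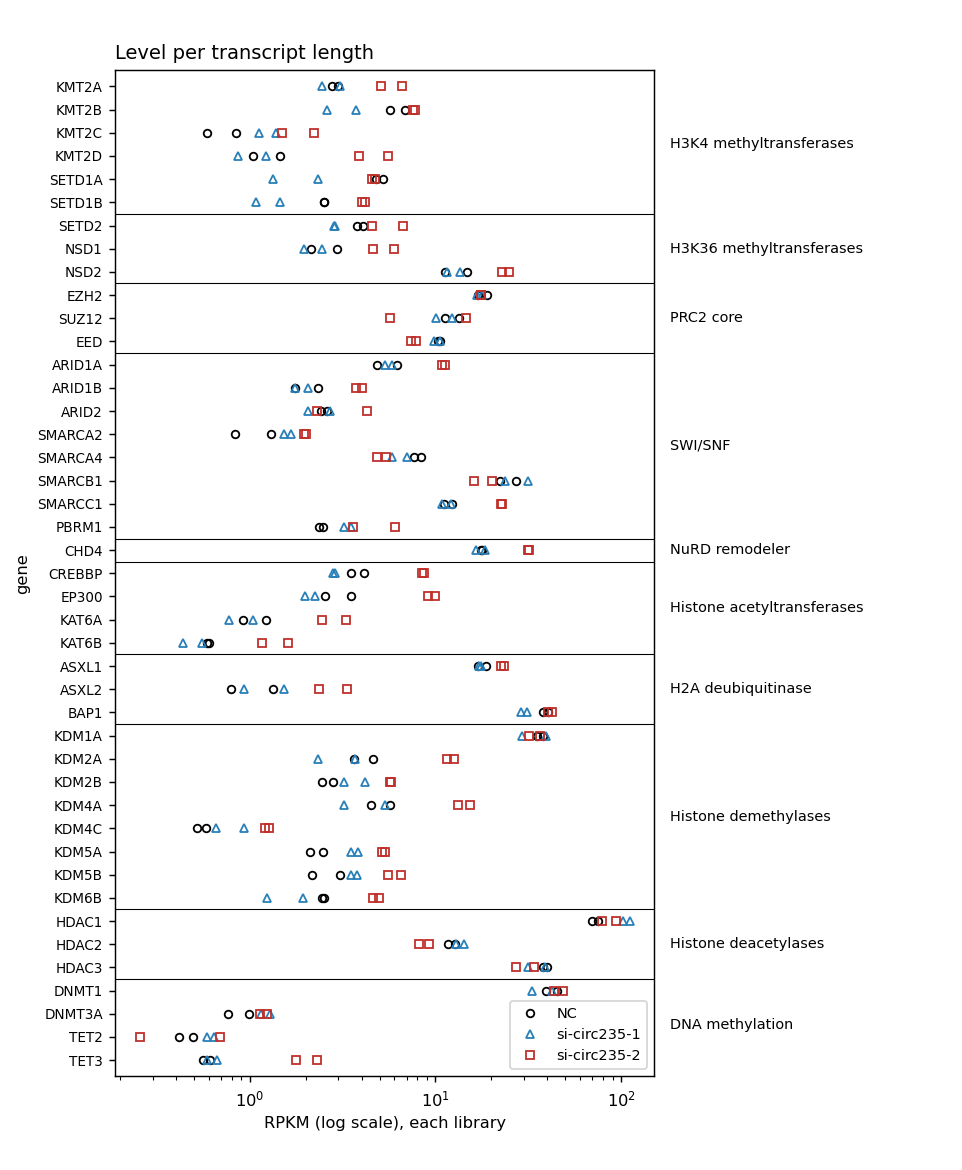
RPKM (log scale) of each chromatin gene in each of the 6 libraries, with black circles for NC, blue triangles for si-circ235-1 and red squares for si-circ235-2, grouped by role. HDAC1 stands at the right in all libraries, with a mean of 72.4 RPKM in NC, and the red squares lie to the right of the other symbols for most methyltransferases, acetyltransferases and demethylases.

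A further 115 chromatin genes, partners and relatives of the 43 listed from general knowledge, were looked up in the same fits, and 114 were tested. Under si-circ235-2, 32 were called higher and 9 lower, beside 15.7% of all genes in each direction, with a median log2 fold change of 0.25. Of the 52 in the longest class, 24 were called higher, beside 35.9% of all genes of that class, and 11 were with the trend removed, beside 15.3%. The other demethylases were again mostly higher, with 7 of 9 called, and 5 of 9 with the trend removed. The largest rises among those called were those of GATAD2B, a NuRD subunit, from 0.918 and 1.22 CPM in NC to 8.2 and 11 in si-circ235-2 (3.15 ± 0.36, adjusted p = 0.00179), SMARCC2, the paralog of SMARCC1 (1.82 ± 0.31, adjusted p = 0.00326), and the remodeler subunit BAZ2A (1.73 ± 0.24, adjusted p = 0.00191). GATAD2B was at 0.909 and 0.614 CPM in si-circ235-1, close to NC. The largest falls among those called were those of the deacetylase SIRT6 (-1.29 ± 0.22, adjusted p = 0.0033), MBD3, a core NuRD subunit (-1.29 ± 0.23, adjusted p = 0.00387), and the SWI/SNF subunit BCL7C (-1.15 ± 0.26, adjusted p = 0.00917). SIRT6 is in the shortest length class, whose median over all genes was -0.60, and MBD3 in a longer class with a median of 0.26. Once the trend over length and GC content was taken out, BCL7C was at -0.50 and not called (edgeR, adjusted p = 0.0776). The lowest of the 3 listed genes of the shortest class, SIRT6 among them, was then at -0.44.

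Under si-circ235-1, 2 of the 114 were called higher, HDAC4 (1.03 ± 0.23, adjusted p = 0.031) and KMT5B (0.72 ± 0.19, adjusted p = 0.0478), and 6 were called lower, beside 2.24% and 3.64% of all genes. SMARCC2 fell the most, from 15.1 and 28.3 CPM in NC to 8.74 and 5.08 in si-circ235-1 (-1.66 ± 0.33, adjusted p = 0.0193), and was at 76.1 and 77.4 CPM in si-circ235-2. NCOA6 and MEN1, which belong to H3K4 methyltransferase complexes of the KMT2 family, followed at -1.02 ± 0.22 (adjusted p = 0.0256) and -1.02 ± 0.19 (adjusted p = 0.0172). NCOA6 was at 37.4 and 54.5 CPM in NC, 21.9 and 23.4 in si-circ235-1 and 88.6 and 89.3 in si-circ235-2, so the conditions did not overlap and lay in the same order as those of SETD1B.

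Between the siRNAs, 42 of the 114 were higher under si-circ235-2 and 10 lower, beside 21.1% and 18.6% of all genes. GATAD2B (3.66 ± 0.38), SMARCC2 (3.48 ± 0.34) and NCOA6 (1.97 ± 0.22) differed the most upwards, and SIRT6 (-1.50 ± 0.23), BCL7C (-1.32 ± 0.26) and the ATPase RUVBL2 (-1.03 ± 0.23) the most downwards, with adjusted p of 0.00527 or less for all 6.

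The match to the miR-330-5p seed shown above was found in the longest 3′ UTR of 10 of the 43 genes (23.3%), against 20.5% of the 12142 genes tested that have an annotated 3′ UTR. These UTRs had a median of 2345 nt in the 43 genes and 1342 nt over all, so the shares are not from sequences of like length. The 10 were KMT2A, KMT2B, SETD1B, SMARCB1, CREBBP, ASXL1, KDM2B, KDM5B, HDAC3 and DNMT3A, with 3 matches each in SETD1B and SMARCB1 and 2 each in CREBBP and ASXL1. Under si-circ235-1 the median log2 fold change was -0.06 over the 10 genes and -0.08 over the 33 without a match, and under si-circ235-2 it was 0.57 and 0.93. KMT2B and SETD1B, which fell under si-circ235-1, hold matches, and SETD1A, which fell further, holds none in the 3′ UTR searched. KMT2D, TET3 and EP300, the genes with the largest rises under si-circ235-2, hold none either. A match of these letters is a description of the sequence and no measure of binding.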

How the data were processed

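RNA of T24 cells was sequenced for 3 conditions (NC, si-circ235-1, si-circ235-2) with 2 libraries each. The authors enriched polyadenylated RNA with oligo dT beads, sequenced it without strand information and deposited raw counts per gene as whole numbers. The submitters' processing notes name FastQC, cutadapt, STAR and hg38, and the sources used here do not give the counting tool or annotation release. Where genes overlap, reads counted without strand may belong to either. Groups and replicates were taken from the labels. The libraries held 15373992 to 19912893 counts. The 2 libraries per condition limit the precision, and for genes with few counts, such as KDM4C with 37 and 44 in NC, so does counting error. P-values measure the spread between these libraries together with counting error.

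The quasi-likelihood test of edgeR 4.0.16 (R 4.3.3) was run after filterByExpr and TMM scaling, with 1 mean per condition over all 6 libraries. P-values were adjusted over the 14415 genes kept (Benjamini-Hochberg, threshold 0.05), and fits were tested on simulated data. CPM used TMM-scaled totals. Symbols, positions, lengths and GC content (longest transcript) and 3′ UTRs (longest coding transcript of the basic set) came from GENCODE 29 (GRCh38), where 99.5% of identifiers were found, and its release may differ from that of the authors. Libraries with the same number did not deviate together, with correlations of deviations of -0.09, 0.15 and 0.14 between conditions, so the number was not used as a pairing.

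Values in every library are given for members called against NC with a log2 fold change of at least 0.5 in size and a mean of at least 5 CPM, and for the member of highest level per length in a role with none. From the other chromatin genes, up to 3 rises and 3 falls per comparison are named. The members, lists and tests were chosen with earlier results of these data known. Alternatives were DESeq2 1.42.0, other scalings and filters, fits of 2 conditions, the replicate block, each library left out, and removal of a smooth trend over length and GC content (splines with 5 degrees of freedom) by offsets, whose version on the longest coding transcript was chosen after seeing the data.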

Additional observations from a re-analysis of the deposited data

How the results depend on the processing

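Under the alternatives that kept the counts as they were (no TMM factors, RLE size factors, DESeq2, other filters on low counts, fits of only the 2 groups compared, the replicate block), 25 to 27 chromatin genes were called higher under si-circ235-2, and the 3 falls under si-circ235-1 were called in each. Of the 13395 to 25830 genes tested, these fits called 2192 to 3173 higher under si-circ235-2 and 469 to 1067 lower under si-circ235-1. Calls also moved with the removal of the trend over length and GC content. For si-circ235-2 against NC, the genes called higher went from 25 to 13 with length and GC content removed, 14 with length alone, 11 with the replicate block added and 13 with the longest coding transcript, and those called lower from 1 to 3, 3, 3 and 4. Over the 14415 genes tested, the higher calls went from 2270 to 1615, 1661, 1285 and 1509 in these fits. The lower calls went from 2260 to 2113, 1940, 1793 and 2053. For si-circ235-2 against si-circ235-1, higher calls went from 23 to 15 with length and GC content removed, 13 with the block added and 14 with the coding transcript, and lower calls from 2 to 6, 5 and 8. Over all genes, higher calls went from 3047 to 2477, 2248 and 2438, and lower calls from 2678 to 3346, 3128 and 3407. For si-circ235-1 against NC, higher calls went from 0 to 4, 1 with length alone, 3 with the block added, where KMT2B was no longer called lower, and 4 with the coding transcript, and were 2 with DESeq2, 1 without a filter and 2 in the fit of only the 2 groups compared. Over all genes, they went from 323 to 1189, 759, 780 and 1344. With DESeq2 they were 714, without a filter 611 of 25830, and with only the 2 groups 755. Genes called lower under si-circ235-2 were 0 without TMM factors, 2 with DESeq2 and 3 with the replicate block, and against si-circ235-1 they were 0 without TMM factors. Over all genes, these lower calls were 1294, 2382 and 2439, and 1496 against si-circ235-1.

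With single libraries left out, the calls against NC ranged from 7 to 26 higher and 0 to 1 lower for si-circ235-2 and from 0 to 2 higher and 0 to 3 lower for si-circ235-1, and between the siRNAs from 18 to 25 higher and 1 to 3 lower. The count of 7 was that without NC replicate 1, and 0 of the 3 falls under si-circ235-1 were called without NC replicate 1, NC replicate 2 or si-circ235-1 replicate 2. In every fit that left 1 library in a compared group, fewer genes of all kinds were called in both directions than in the main fit. For si-circ235-1 against NC, more genes of all kinds were called without either si-circ235-2 library. These ranges are therefore no result about the chromatin genes alone. The cause of the lost calls was not tested. The replicate numbers did not pair the libraries, and the replicate block left the same 25 genes called higher and added SMARCB1 and HDAC2 to those called lower.

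No gene called in the main fit changed sign under any alternative, but genes not called there did. EED under si-circ235-2 went from -0.46 to 0.41 with length and GC content removed. With the longest coding transcript it was called lower, at -0.57 (edgeR, adjusted p = 0.024), so its sign depended on the transcript chosen. Length and GC content could not be told apart from other properties of long genes, and genes near 5 CPM, such as KAT6B, TET2 and KDM4C, have the least depth behind them.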
